A study of Homo sapiens with 6 samples.

Results

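The genes described here are 43 genes of autophagy and the lysosome, measured in SH-SY5Y cells with and without endosulfan. They were taken from a named list and not picked by a cut on their values, though the list was chosen with earlier results of these data known. All 43 had at least 1 probe set on the array whose annotation names that gene alone. They make up 43 of the 18132 genes measured, and their 151 probe sets are among 49293. SH-SY5Y is an established human neuroblastoma line with features of sympathetic neuroblasts, and endosulfan is an organochlorine insecticide. The endosulfan group is 3 samples of cells that received 3 µM over 24 h, less than the LC50 according to the labels. The control group is 3 samples of the same line, and what was given to it in place of endosulfan, if anything, is unstated. Samples are labelled as biological replicates, but no separate cultures or days are named, so the p-values measure the spread between these 6 arrays, part of which may be technical. Values are log2 levels per probe set from Affymetrix PrimeView arrays, and a difference is endosulfan minus control on that scale.

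Autophagy encloses cytoplasm in a double membrane, the autophagosome, which fuses with the lysosome. The ULK1 kinase complex starts the process, the lipid kinase PIK3C3 (VPS34) with BECN1 and ATG14 marks the membrane, and a ubiquitin-like system of ATG proteins attaches LC3 and GABARAP proteins to it, where cargo receptors such as SQSTM1 (p62) bind. Inside the lysosome, acid hydrolases digest the delivered material at a low pH kept by the vacuolar proton pump. TFEB and TFE3 are transcription factors that act on many lysosome genes through an extended E-box, the CLEAR element. In neurons, which rarely divide, this route is a main way of clearing aggregated protein and damaged organelles.

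The promoters of several lysosomal members carry such an E-box, and their sequences are shown because they set these genes apart within the 43 before any level is considered. RefSeq promoters of build GRCh38.p14, which run from 250 bases before to 50 bases after a start site, were matched by symbol for 36 of the 43 genes (45 promoters). RB1CC1, CTSB, HEXA, LAMP2, ATP6V1A, ATP6V1B2 and ATP6V1H were not matched. The 8-letter E-box TCACGTGA, which reads the same on both strands and holds the 6-letter core CACGTG, was found in 6 of the 45 promoters (13.3%). In the 20403 promoters of all genes measured its share was 1.31%, and in all 35116 promoters listed it was 0.98%. The core alone was found in 8 of the 45 (17.8%) and in 8.29% of the promoters of genes measured, the further ones being CTSD and ATG14. By class, the 8-letter form was in 1 of 29 autophagosome promoters, 2 of 5 hydrolase promoters, 2 of 5 lysosomal membrane promoters and 1 of 2 pump promoters. Capitals mark the 8 letters in the windows below, each written 5′ to 3′ on the gene's own strand and lying just upstream of its start site.
LAMP1, chr13:113297194-113297233, plus strand: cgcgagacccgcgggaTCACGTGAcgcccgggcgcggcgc
MCOLN1, chr19:7522566-7522605, plus strand: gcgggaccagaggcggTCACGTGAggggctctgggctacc
MCOLN1, chr19:7522593-7522623, plus strand: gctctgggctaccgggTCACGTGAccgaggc
GAA, chr17:80101488-80101527, plus strand: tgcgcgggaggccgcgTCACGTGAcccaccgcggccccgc
GAA, chr17:80101533-80101572, plus strand: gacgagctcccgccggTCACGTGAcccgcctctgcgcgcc
CTSA, chr20:45891293-45891332, plus strand: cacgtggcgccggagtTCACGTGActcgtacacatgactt
ATP6V0D1, chr16:67481194-67481233, minus strand: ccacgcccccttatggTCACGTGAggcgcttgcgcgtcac
The sixth promoter is that of ATG3, where the 8 letters lie just after the start site. LAMP1 holds them once more, across its start site, in a stretch not printed here. A match describes these letters only and is not a measured binding site.

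Array medians lay between 4.89 and 4.94. The poly-A spike-ins, bacterial transcripts usually added to the RNA before labelling, averaged 6.19, 7.83 and 5.84 on the control arrays and 7.90, 7.82 and 8.90 on the endosulfan arrays. The hybridization controls averaged 10.22, 10.61 and 10.05 on the control arrays and 10.85, 10.80 and 11.13 on the endosulfan arrays. GAPDH signal at the 3′ end exceeded that at the 5′ end, a sign of RNA quality, by 0.81, 0.74 and 0.70 on the control arrays and by 0.89, 0.82 and 0.82 on the endosulfan arrays. In both measures all endosulfan arrays lay above all controls, while the poly-A levels overlap. The part of these measures in the differences below was not tested. Replicate 1 of the control stood apart. It was the highest or the lowest control array in 42 of the 43 genes (97.7%), against 79.7% of all genes measured. Its part in the differences below was not tested, and the differences with each array left out are given where they matter. Of 11 sympathetic neuroblast markers 10 were measured, with mean levels from 7.72 to 13.2. Macrophage markers lay at 2.81 to 5.95 in mean level, Schwann, glial or mesenchymal markers at 2.80 to 6.64 and epithelial markers at 3.26 to 7.06. The values carry no detection call, so no probe set was set aside as dim.

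None of the 43 genes passed the limma test at a Benjamini-Hochberg adjusted p below 0.05, and none of their 151 probe sets did. The background is as sparse, with 1 of 18132 genes past the threshold (0.00552%) and 4 of 49293 probe sets (0.00811%). By direction 21 genes were higher with endosulfan and 22 lower, with a median difference of -0.01, while 60.2% of all genes were higher, with a median of 0.05. At an unadjusted p below 0.05 there was 1 gene higher, SQSTM1, where 6.64% of all genes were higher at that level. MAP1LC3B and PIK3C3 were the 2 lower (4.65%), against 10.5% of all genes. The 3 endosulfan arrays all lay above the 3 control arrays in 6 genes (14.0%; 12.4% of all genes) and all below in 3 (6.98%; 10.2% of all genes). These shares are near the background or under it. Of the 151 probe sets 4 were higher and 11 lower at an unadjusted p below 0.05, where all probe sets give 6.3% higher and 9.21% lower.

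**Figure D1:**
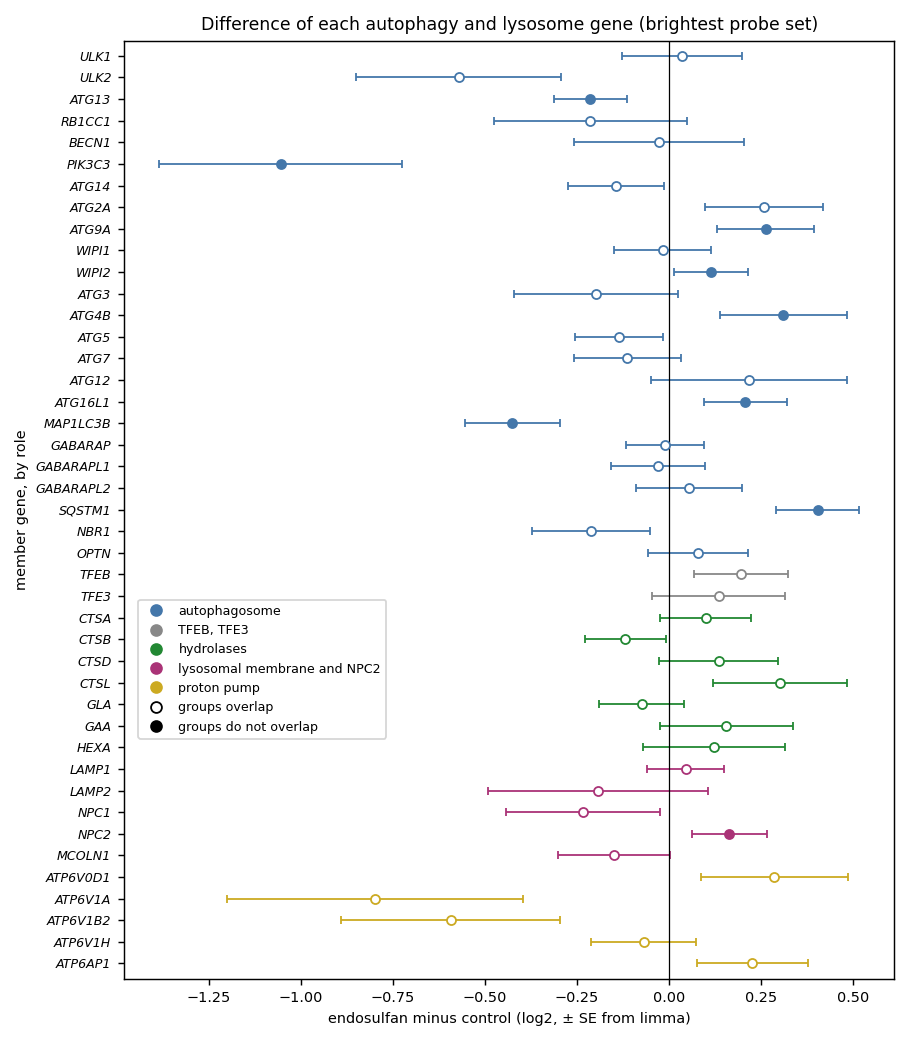
Difference between endosulfan and control for each of the 43 genes, grouped by class, on the log2 scale. Points are the mean of 3 endosulfan arrays minus that of 3 control arrays, bars are ± SE from limma, and filled points mark genes whose groups do not overlap. The points run from -1.05 (PIK3C3) to 0.40 (SQSTM1), and 32 of the 43 lie within 0.25 of 0.

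The intervals say how large a difference could have been missed. For 28 of the 43 genes (65.1%) the 95% interval stayed within a 1.5-fold change in either direction, which also held for 63.5% of all genes. Differences were under 0.25 in size in 32 genes. They were over 0.5 in 4 genes, ULK2, PIK3C3, ATP6V1A and ATP6V1B2, all lower with endosulfan, and these are the 4 whose interval reaches beyond a 2-fold change. In bulk samples a lower level in every cell and a smaller share of the cells that express a gene cannot be told apart.

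In the ULK complex, which starts autophagosome formation, 1 gene was higher and 3 lower, with a median difference of -0.21. ATG13, the subunit that links the kinase to nutrient signals, lay at 8.56, 8.60 and 8.63 in control cells and at 8.40, 8.41 and 8.34 with endosulfan. All 3 endosulfan arrays lay below all 3 controls, and the spread within each group was 0.04 (SD, n = 3). The difference was -0.21 ± 0.10 (SE), with a limma adjusted p of 0.311. The other 2 probe sets of ATG13 differed by 0.06 and 0.32 in the other direction, so the probe sets do not share a direction. The one with 0.32 was dim, at 3.89 in control cells and 4.21 with endosulfan, below every array median. ULK2, a kinase related to ULK1, differed by -0.57 ± 0.28, with 6 probe sets that ranged from -0.57 to 0.04 (adjusted p = 0.33). The ULK2 probe sets that were higher lay below the array medians. ULK1 itself differed by 0.04 ± 0.16, and RB1CC1 (FIP200), the scaffold of the complex, by -0.21 ± 0.26.

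At gene level all 3 genes of the lipid kinase complex were lower with endosulfan, with a median of -0.14. PIK3C3, its catalytic subunit, had levels of 7.46, 6.17 and 6.55 in control cells and 5.29, 6.04 and 5.68 with endosulfan. Every endosulfan array lay below every control array, but the control arrays themselves spread over more than the gap between the groups. Its difference of -1.05 ± 0.33 (a level 2.08-fold lower; 95% interval -1.82 to -0.29) was the largest in size among the 43, with a limma adjusted p of 0.219. It rests on 1 probe set and came to -0.69 without control replicate 1, the smallest in size of the values with 1 array left out, which reached -1.34. BECN1, the partner that regulates the kinase, differed by -0.03 ± 0.23, but 4 of its 6 probe sets were higher, by up to 0.20. ATG14, which directs the complex to autophagosome formation, differed by -0.14 ± 0.13, and its 4 probe sets ranged from -0.56 to 0.11.

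Genes that supply membrane or bind the lipid mark were higher in 3 of 4 cases, with a median of 0.19. ATG9A, the membrane protein of the vesicles that seed the autophagosome, lay at 5.58, 5.76 and 5.79 in control cells and at 6.19, 5.87 and 5.86 with endosulfan. The groups do not overlap but nearly touch, and the difference of 0.26 ± 0.13 had an adjusted p of 0.342. The other ATG9A probe set differed by 0.002, with overlapping groups. ATG2A, a lipid transfer protein, differed by 0.26 ± 0.16 with all 4 probe sets higher. The brightest and another of these hold identical values on every array, so they are not separate readings. WIPI2, a reader of the lipid mark that recruits ATG16L1, differed by 0.11 ± 0.10 without overlap between the groups. The 3 WIPI2 probe sets ranged from -0.12 to 0.16. The relative WIPI1 differed by -0.02 ± 0.13.

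The conjugation genes divided evenly, 3 higher and 3 lower, with a median of 0.05. ATG4B, the protease that trims LC3 proteins, had its 6 probe sets all higher, by 0.10 to 0.38. Its control arrays lay at 8.86, 9.52 and 9.37 and its endosulfan arrays at 9.55, 9.60 and 9.53. The difference of 0.31 ± 0.17 (adjusted p = 0.379) came down to 0.12 without control replicate 1, the lowest of the controls. ATG16L1, which sets where LC3 is attached, was 0.21 ± 0.11 higher without overlap, and ATG12, the ubiquitin-like protein of that complex, differed by 0.22 ± 0.27. ATG3, the enzyme that hands LC3 to lipid and the autophagosome gene with the 8-letter E-box, differed by -0.20 ± 0.22. ATG5, the partner of ATG12, differed by -0.14 ± 0.12 and ATG7, the activating enzyme, by -0.11 ± 0.15.

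Among the 4 genes of the ATG8 family, whose products coat the autophagosome, 1 was higher and 3 lower, and LC3B stood out by the agreement of its probe sets. MAP1LC3B, which encodes LC3B, lay at 8.70, 8.50 and 8.59 in control cells and at 8.38, 8.06 and 8.07 with endosulfan, so every endosulfan array was below every control array. The means were 8.60 ± 0.10 and 8.17 ± 0.18 (SD, n = 3 each), a difference of -0.43 ± 0.13 (SE) or a level 1.34-fold lower, with a 95% interval of -0.73 to -0.13 and a limma adjusted p of 0.216. All 4 of its probe sets were lower at an unadjusted p below 0.05, and none had overlapping groups. The widest gap was on a second probe set, with 9.16, 8.38 and 8.54 in control cells against 7.34, 7.72 and 7.42 with endosulfan. That difference was -1.21, a level 2.31-fold lower, and its adjusted p over all probe sets was 0.215. The other 2 differed by -0.62 and -0.47. The brightest probe set is of a type that can match several transcripts, and the near-identical copy MAP1LC3B2 has no probe set of its own here, so the share of each gene is uncertain.

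The other ATG8 genes were close to the control level. GABARAP lay between 12.60 and 12.81 on all 6 arrays and differed by -0.01 ± 0.11. On 2 of its 4 probe sets the endosulfan arrays lay above all controls, by 0.06 and 0.34 in the mean. GABARAPL1 differed by -0.03 ± 0.13 and GABARAPL2, which also works in Golgi transport, by 0.05 ± 0.14.

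Cargo receptors hold on to what is to be degraded and to the ATG8 proteins. SQSTM1, which encodes p62, lay at 9.99, 10.25 and 10.07 in control cells and at 10.57, 10.46 and 10.49 with endosulfan. All endosulfan arrays lay above all controls, and the lowest endosulfan array was higher than the highest control by more than the SD of either group. The means were 10.10 ± 0.13 and 10.51 ± 0.06 (SD, n = 3 each). The difference of 0.40 ± 0.11 (SE; a level 1.32-fold higher; 95% interval 0.14 to 0.67) had a limma adjusted p of 0.204, the smallest of the 43 genes and still short of the threshold. All 5 probe sets of SQSTM1 were higher, by 0.19 to 0.40, and 3 of them at an unadjusted p below 0.05. These 3, the brightest among them, are of a type that can also match other transcripts. On the remaining SQSTM1 probe sets the groups overlap. With 1 array left out the difference stayed between 0.35 and 0.48. NBR1, a receptor related in build to p62, differed by -0.21 ± 0.16, and OPTN (optineurin), which binds damaged mitochondria, by 0.08 ± 0.14.

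**Figure D2:**
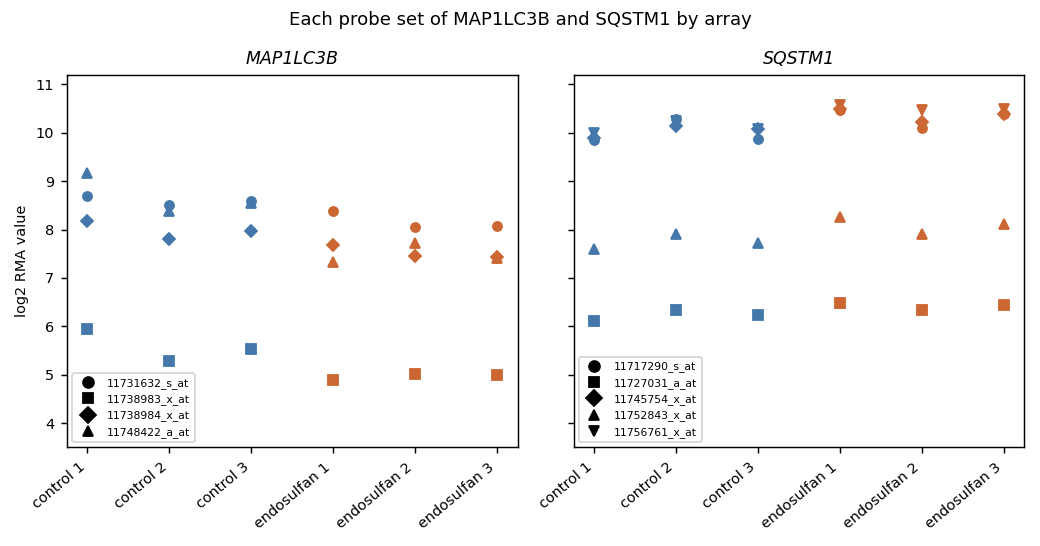
Log2 level of each MAP1LC3B and SQSTM1 probe set on the 6 arrays, with 1 marker shape per probe set and 1 point per array. The 4 MAP1LC3B probe sets are lower with endosulfan by 0.43 to 1.21 and the 5 SQSTM1 probe sets higher by 0.19 to 0.40.

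Beyond these 24 autophagosome genes, 34 of 35 further genes of the same process were measured. None passed the test, with 20 higher, 14 lower and a median of 0.07. At an unadjusted p below 0.05 there were 2 higher (5.88%) and 5 lower (14.7%), where all genes give 6.64% and 10.5%. VAMP8, a fusion protein of the autophagosome and lysosome step, lay at 2.99, 3.14 and 3.12 in control cells and at 3.54, 3.70 and 3.61 with endosulfan, below every array median, a difference of 0.53 (adjusted p = 0.196). ATG2B, the relative of ATG2A, differed by -0.62 (adjusted p = 0.215), and RUBCN (Rubicon), an inhibitor of the lipid kinase, by -0.34 (adjusted p = 0.224).

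TFEB and TFE3 are held in the cytoplasm by mTORC1 when nutrients are plentiful, so their RNA level describes only part of their activity. TFEB lay at 7.49, 7.69 and 7.69 in control cells and at 7.93, 7.63 and 7.91 with endosulfan, and TFE3 at 5.53, 5.79 and 5.95 against 6.23, 5.65 and 5.79. The groups overlap in both genes, with replicate 2 of endosulfan among the controls. The differences were 0.20 ± 0.13 for TFEB (adjusted p = 0.448) and 0.13 ± 0.18 for TFE3 (adjusted p = 0.713). TFE3 has 1 probe set higher and 1 lower, and its difference came to -0.03 in the lowest of the values with 1 array left out.

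Of 25 genes that control mTORC1 or TFEB 24 were measured and none passed. 9 were higher and 15 lower, with a median of -0.06. At an unadjusted p below 0.05 there were 2 higher (8.33%) and 5 lower (20.8%), again beside 6.64% and 10.5% of all genes. TSC1, a brake on mTORC1, lay at 7.85, 6.71 and 7.27 in control cells and at 6.32, 6.27 and 6.49 with endosulfan, a difference of -0.92 (adjusted p = 0.205). The kinase MTOR differed by -0.91, with 7.62, 6.78 and 7.12 against 6.02, 6.76 and 6.01 (adjusted p = 0.212). FLCN (folliculin), which helps mTORC1 to act on TFEB, lay at 5.80, 6.59 and 6.37 against 6.96, 6.82 and 6.92, higher by 0.65 (adjusted p = 0.215). In these 3 genes the endosulfan arrays lay apart from the controls, with the smallest gap in MTOR. Of the 24 genes 4 lay wholly below the controls (16.7%) and 2 wholly above (8.33%), beside 10.2% and 12.4% of all genes.

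Lysosomal hydrolases differed little between the groups. Of the 7 genes 5 were higher and 2 lower, with a median of 0.12, all between -0.12 and 0.30, and in none did the groups separate at gene level. CTSL (cathepsin L), a cysteine protease, lay at 7.05, 6.66 and 6.52 in control cells and at 7.25, 6.77 and 7.11 with endosulfan. Its difference of 0.30 ± 0.18 was the largest of the class (adjusted p = 0.413), and the endosulfan arrays overlap the highest control. CTSB (cathepsin B), another cysteine protease, lay at 10.38, 10.24 and 10.33 against 10.32, 10.16 and 10.12, a difference of -0.12 ± 0.11 (adjusted p = 0.586). All 4 CTSB probe sets were lower, and 2 of them separated the groups. One differed by -0.16 and the other by more, with 9.54, 9.36 and 9.41 against 9.06, 9.08 and 9.00 (-0.39, adjusted p over all probe sets 0.215).

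CTSD (cathepsin D), an aspartic protease, and GAA, the acid glucosidase that breaks down glycogen, had similar patterns over the arrays. CTSD lay at 6.89, 7.44 and 7.30 in control cells and at 7.48, 7.21 and 7.35 with endosulfan, a difference of 0.13 ± 0.16 (adjusted p = 0.679). GAA lay at 8.31, 8.84 and 8.63 against 8.93, 8.46 and 8.86, a difference of 0.16 ± 0.18 (adjusted p = 0.665). In each the lowest array was control replicate 1 and the lowest endosulfan array was replicate 2. CTSA, a carboxypeptidase that protects other lysosomal enzymes, differed by 0.10 ± 0.12, GLA, the alpha-galactosidase, by -0.07 ± 0.12, and HEXA, a subunit of hexosaminidase, by 0.12 ± 0.19 with 8 probe sets from -0.16 to 0.31. The E-boxes of GAA and CTSA shown above thus belong to genes with differences of 0.16 and 0.10.

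Of 39 other hydrolases and their activators 33 were measured and none passed. 22 were higher and 11 lower, with a median of 0.06. At an unadjusted p below 0.05 there were 2 higher (6.06%) and 4 lower (12.1%), beside 6.64% and 10.5% of all genes. ARSB (arylsulfatase B), which breaks down glycosaminoglycans, lay at 7.58, 7.17 and 6.94 in control cells and at 6.26, 6.43 and 6.29 with endosulfan, a difference of -0.90 (adjusted p = 0.196). PPT1, a thioesterase that removes fatty acids from proteins, differed by -0.91 (adjusted p = 0.22) and CTSK (cathepsin K) by -0.42 (adjusted p = 0.25). In all 3 every endosulfan array lay below every control array. Of the 33 genes 3 lay wholly below the controls (9.09%) and 5 wholly above (15.2%), beside 10.2% and 12.4% of all genes.

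**Figure D3:**
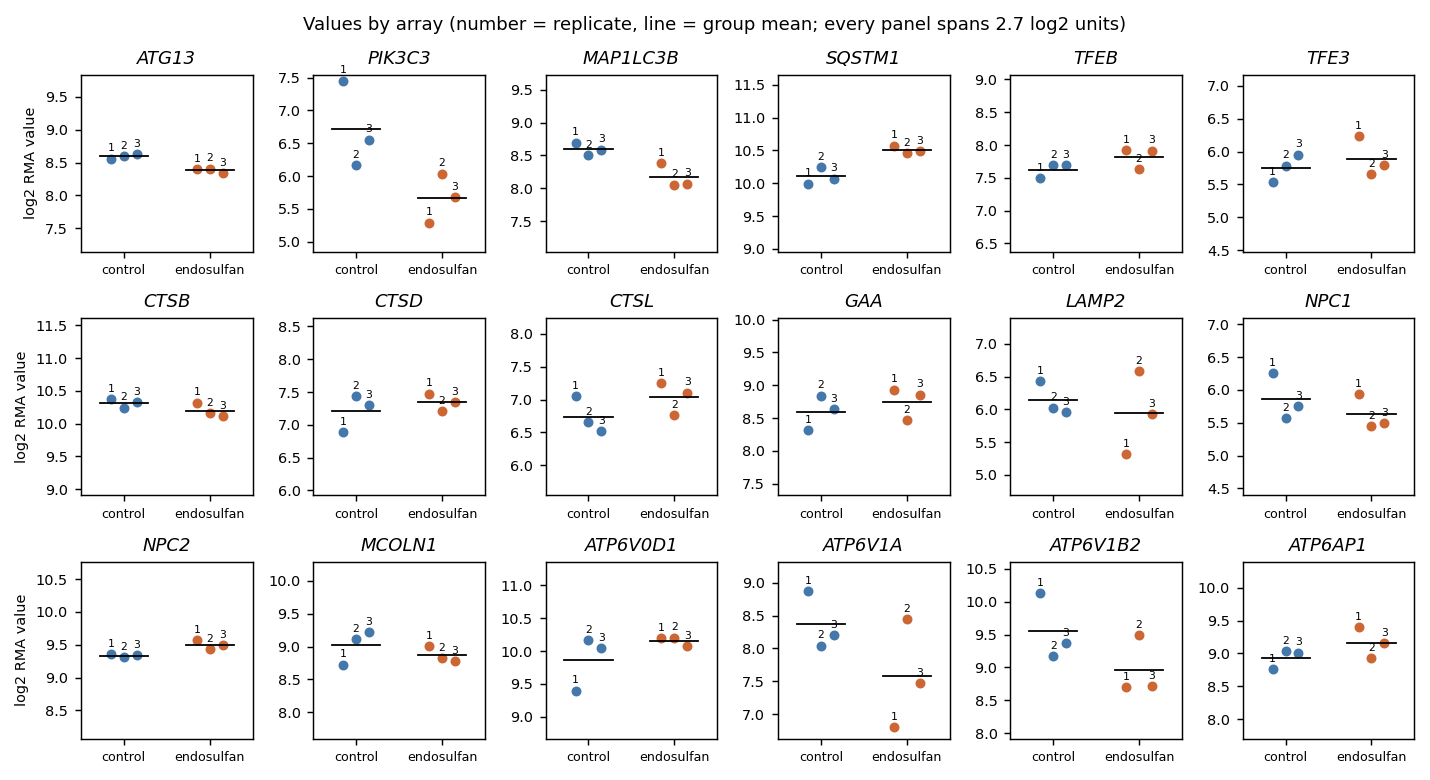
Log2 level on each of the 6 arrays for the 4 genes of each class with the smallest unadjusted p and both transcription factors, 1 point per array and a bar at each group mean of 3. SQSTM1, MAP1LC3B, PIK3C3, ATG13 and NPC2 are the genes plotted in which the groups do not overlap.

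The membrane and cholesterol export proteins had 2 genes higher and 3 lower, with a median of -0.15. NPC2, the lumenal protein that hands cholesterol to NPC1, lay at 9.35, 9.31 and 9.34 in control cells and at 9.57, 9.43 and 9.50 with endosulfan. The groups do not overlap and the control SD was 0.02, yet the difference of 0.16 ± 0.10 was small and had an adjusted p of 0.422. NPC1, the membrane partner that exports the cholesterol, lay at 6.26, 5.57 and 5.75 against 5.94, 5.45 and 5.49, a difference of -0.23 ± 0.21 (adjusted p = 0.573), and its other probe set differed by 0.35 in the other direction. That probe set was dim, at 3.51 in control cells and 3.86 with endosulfan, below the array medians, and its groups overlap.

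LAMP2, a major membrane glycoprotein needed for autophagosome fusion, lay at 6.43, 6.03 and 5.96 in control cells and at 5.32, 6.59 and 5.93 with endosulfan. The lowest and the highest of its 6 values are both endosulfan arrays, and the difference was -0.19 ± 0.30 (adjusted p = 0.752). Its 9 probe sets, the most of any of the 43 genes, ranged from -0.51 to 0.19, and most of them lay below the array medians. LAMP1, the related glycoprotein with an E-box shown above, differed by 0.05 ± 0.10. MCOLN1 (mucolipin 1), the lysosomal calcium channel, also with E-boxes shown above, lay at 8.73, 9.11 and 9.22 against 9.00, 8.83 and 8.78. Its difference was -0.15 ± 0.15 (adjusted p = 0.621), and each of its 2 probe sets was lower.

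All 18 other lysosomal membrane proteins listed were measured, with 10 higher, 8 lower and a median of 0.01, and none passed. SCARB2 (LIMP-2), the receptor that carries glucocerebrosidase to the lysosome, lay at 10.29, 9.34 and 9.63 in control cells and at 8.09, 8.99 and 8.66 with endosulfan. Its difference of -1.17 (adjusted p = 0.196) was the only one of the 18 at an unadjusted p below 0.05 (5.56%, beside 10.5% of all genes lower). LAPTM4B differed by -0.75 (adjusted p = 0.295) and CLN3 by 0.39 (adjusted p = 0.305), both with overlapping groups.

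Subunits of the proton pump were spread more widely than the other lysosomal genes, from -0.80 to 0.29, with 2 higher, 3 lower and a median of -0.07. ATP6V1A and ATP6V1B2 are subunits of the ring that hydrolyses ATP. ATP6V1A lay at 8.87, 8.04 and 8.20 in control cells and at 6.80, 8.45 and 7.47 with endosulfan. Replicate 2 of endosulfan lay above 2 of the 3 controls, so the groups overlap. The difference was -0.80 ± 0.40 (95% interval -1.73 to 0.13; adjusted p = 0.345), with all 5 probe sets lower by 0.09 to 0.80. Apart from the brightest, these were dim, with group means from 2.91 to 4.07, below the array medians. ATP6V1B2 lay at 10.13, 9.17 and 9.38 against 8.70, 9.49 and 8.71, a difference of -0.59 ± 0.30 (adjusted p = 0.343). All 3 of its probe sets were lower, 2 of them at an unadjusted p below 0.05, and endosulfan replicate 2 again lay among the controls. Without 1 array the differences ran from -1.24 to -0.41 for ATP6V1A and from -0.85 to -0.31 for ATP6V1B2.

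The other pump genes were not lower to that extent. ATP6V0D1, a subunit of the membrane sector with an E-box shown above, lay at 9.40, 10.17 and 10.05 in control cells and at 10.19, 10.20 and 10.07 with endosulfan. All 7 of its probe sets were higher, by 0.06 to 0.34, but at gene level the difference of 0.29 ± 0.20 (adjusted p = 0.474) came to 0.05 without control replicate 1, which lay far below the other arrays. ATP6AP1, an accessory subunit that helps pump assembly, lay at 8.76, 9.03 and 9.01 against 9.40, 8.92 and 9.16, a difference of 0.23 ± 0.15 (adjusted p = 0.459). ATP6V1H, which couples the ATP ring to the membrane sector, differed by -0.07 ± 0.14.

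Of 19 other pump subunits 18 were measured and none passed. 9 were higher and 9 lower, with a median of -0.07. At an unadjusted p below 0.05 there were 2 higher (11.1%) and 4 lower (22.2%), beside 6.64% and 10.5% of all genes. ATP6V1E1, part of a stalk of the ATP-splitting sector, lay at 9.06, 8.39 and 8.51 in control cells and at 7.62, 7.99 and 7.75 with endosulfan, a difference of -0.87 (adjusted p = 0.196). ATP6V1D, part of the turning shaft, differed by -1.17, with 7.02, 6.47 and 6.73 against 4.78, 6.21 and 5.73 (adjusted p = 0.209). ATP6V0A2, a membrane sector subunit, differed by -0.32 (adjusted p = 0.22). In these 3 every endosulfan array lay below every control array. Of the 18 subunits 5 lay wholly below the controls (27.8%) and 4 wholly above (22.2%), beside 10.2% and 12.4% of all genes.

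Set side by side, the classes did not separate. Autophagosome genes had 10 higher and 14 lower with a median of -0.02, and the 17 lysosomal genes 9 higher and 8 lower with a median of 0.05. The widest single differences were in the autophagosome class, from -1.05 to 0.40, where 5 genes lay wholly above the controls (20.8%; 12.4% of all genes) and 3 wholly below (12.5%; 10.2% of all genes). Of the 17 lysosomal genes NPC2 lay wholly above the controls (5.88%) and none wholly below. The classes were not tested against each other. When each gene was centred on its mean over the 6 arrays, the average autophagosome gene stood at 0.12, -0.01 and -0.02 on the control arrays and at -0.09, 0.02 and -0.02 on the endosulfan arrays. Hydrolases stood at -0.16, 0.05 and -0.01 against 0.18, -0.08 and 0.03. Lysosomal membrane genes stood at 0.13, -0.04 and 0.03 against -0.04, 0.03 and -0.10, and pump genes at 0.21, 0.02 and 0.06 against -0.20, 0.11 and -0.20. In each class the arrays of the groups overlap.

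The autophagosome average minus the hydrolase average was 0.07 ± 0.18 in control cells and -0.07 ± 0.19 with endosulfan (SD, n = 3 each), a change of -0.15 that is under either SD. Against the membrane genes the change was 0.01. Against the pump it was 0.13, from -0.06 ± 0.03 to 0.06 ± 0.14. The genes were chosen with results known, so these averages carry no test. Autophagosome and pump averages were highest on control replicate 1, where the hydrolase average was lowest, and endosulfan replicate 1 had the lowest autophagosome and the highest hydrolase average.

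**Figure D4:**
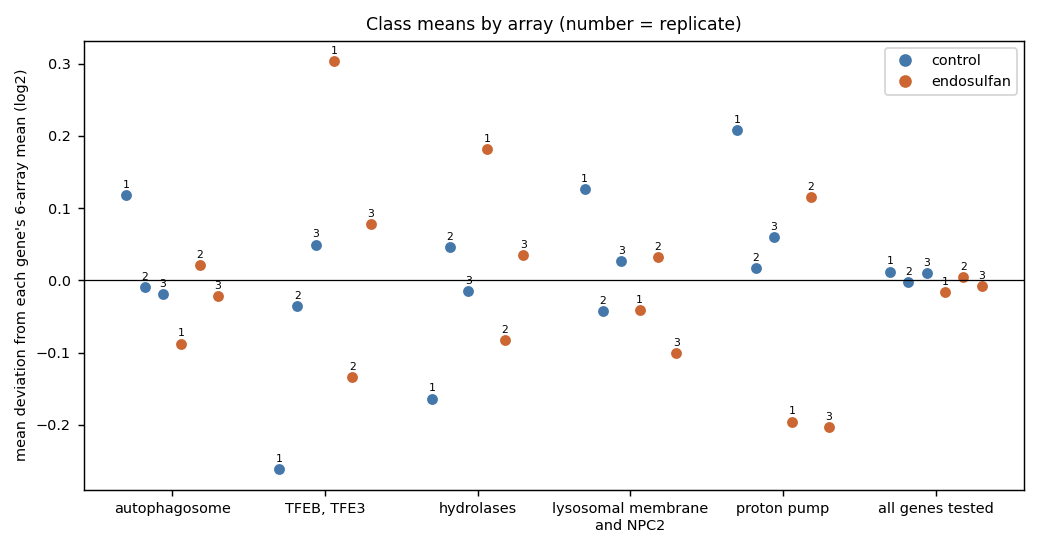
Mean centred log2 level of each class on each of the 6 arrays, with 1 point per array. Hydrolases run from -0.16 on control replicate 1 to 0.18 on endosulfan replicate 1, and pump genes from 0.21 on control replicate 1 to -0.20, with overlapping groups in each class.

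Probe sets of 1 gene did not always point the same way. Of the 43 genes 39 had several probe sets, and in 17 of them some were higher and others lower. Some of the probe sets that pointed the other way were dim. In NPC1, TFE3 and ULK2 those opposite to the brightest lay below every array median. The share of such genes among all genes was not counted. RB1CC1, WIPI1, ATG7, MAP1LC3B, CTSB, MCOLN1, ATP6V1A and ATP6V1B2 were lower on every probe set. ATG2A, ATG9A, ATG4B, ATG12, ATG16L1, GABARAPL2, SQSTM1, OPTN, TFEB, CTSD, GAA, NPC2, ATP6V0D1 and ATP6AP1 were higher on every one. PIK3C3, ULK1, CTSL and ATP6V1H rest on 1 probe set each. Over all 151 probe sets 85 were higher and 66 lower with a median of 0.03, against 0.05 for all probe sets measured.

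**Figure D5:**
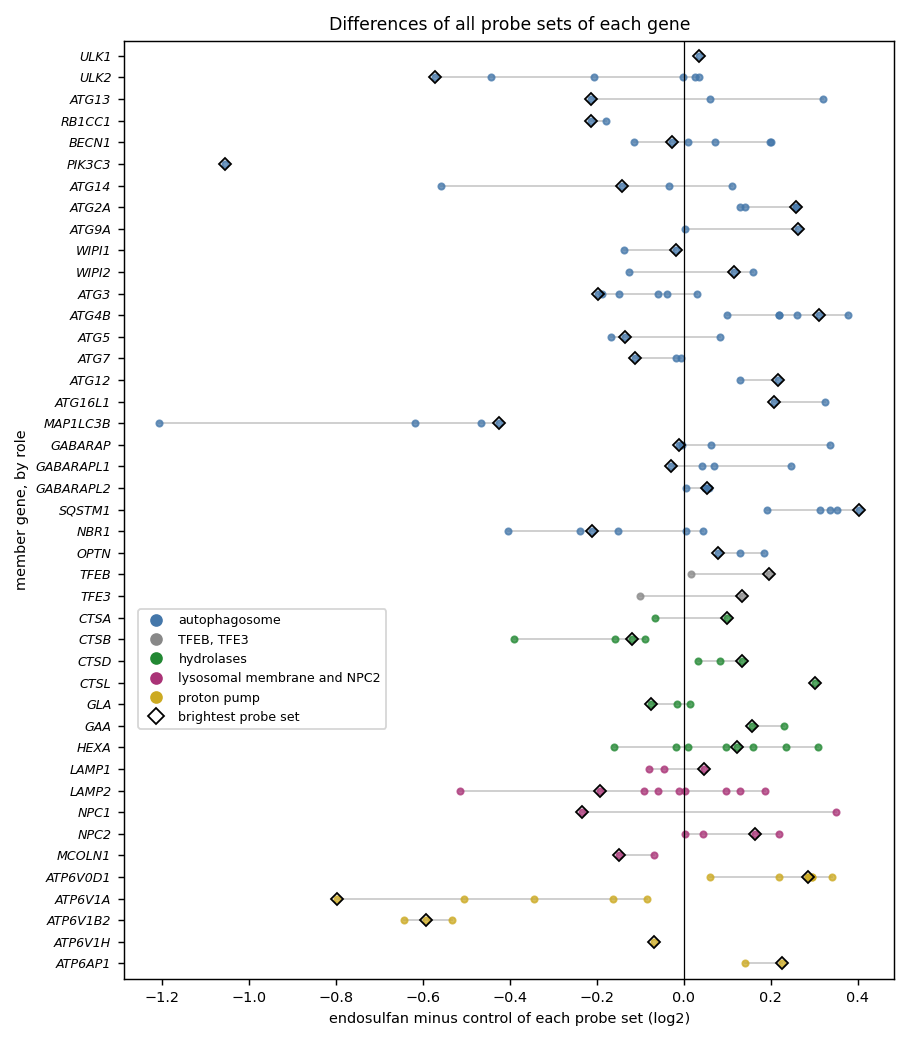
Difference between endosulfan and control of each of the 151 probe sets, by gene, on the log2 scale, with 1 point per probe set and a diamond at the brightest. MAP1LC3B is lower on 4 of 4 probe sets, down to -1.21, and SQSTM1 higher on 5 of 5, while 17 genes have points on both sides of 0.

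Weighting the arrays by their agreement changed these calls. With limma's array weights 12 of the 43 genes (27.9%) had an adjusted p below 0.05, and 32.6% of all genes did. Of their 151 probe sets 21 (13.9%) did, and 14.4% of all probe sets. The 5 higher were ATG2A, ATG12, SQSTM1, OPTN and CTSL, and the 7 lower were ULK2, ATG13, PIK3C3, MAP1LC3B, MCOLN1, ATP6V1A and ATP6V1B2. That fit rests mostly on 1 array per group, with weights of 4.22 for control replicate 3 and 5.46 for endosulfan replicate 3 against 0.27 to 0.66 for the others, and the shares are near those of all genes and probe sets or under them. The tool also warned that its estimate of the weights stopped before convergence.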

How the data were processed

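RNA of 3 control and 3 endosulfan samples was measured on 1 array each. The authors deposited 1 table of log2 values, made with Affymetrix Expression Console and RMA per the submitters' processing notes. RMA brings all arrays to 1 distribution, so a shift shared by most transcripts would be removed. Versions, options and the probe build were not given in the sources used here. Of 49395 probe sets, 102 controls were set aside. The platform annotation named 1 gene for 44988 probe sets, several for 1832 and none for 2473. All 43 gene IDs were found in RefSeq (GRCh38.p14) and no symbol needed an update. The 5 probe sets naming both ABCB6 and ATG9A were left out. At gene level the brightest probe set, by its mean on all 6 arrays, stood for each gene.

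Endosulfan was compared with control with limma 3.58.1 (lmFit, eBayes) in R 4.3.3 on all 6 arrays, two-sided, with p-values adjusted by Benjamini-Hochberg over all genes or all probe sets and a threshold of 0.05. The fit was tested on simulated data, with noise drawn separately for each gene and array. That test does not cover deviations shared by the genes of an array. The number of arrays limits the precision. The 43 genes, the other lists and the tests were chosen with earlier results of these data known. All 43 genes are named, and in each class the 4 with the smallest unadjusted p are given with every array value. From each further list the 3 genes with the smallest unadjusted p are named. Single probe sets described beside a gene were chosen after their values were seen. Alternatives covered the replicate block, normalization, dim features, moderation, array weights, the spike-in level, the probe set rule and single arrays left out.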

Additional observations from a re-analysis of the deposited data

Results flagged for a closer look

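The poly-A spike-in controls, which no comparison of genes uses, differed between the groups. Their mean level was 6.62 ± 1.06 on the control arrays and 8.21 ± 0.60 on the endosulfan arrays (SD, n = 3 each), 1.59 higher with endosulfan, with overlapping groups. The hybridization controls averaged 10.29 ± 0.29 and 10.93 ± 0.18, 0.63 higher with endosulfan, and the GAPDH 3′ to 5′ difference was 0.75 ± 0.06 and 0.84 ± 0.04, 0.09 higher. In both of these the groups did not overlap. With the poly-A level as a covariate SQSTM1 differed by 0.28, MAP1LC3B by -0.30, PIK3C3 by -0.59 and ATP6V1B2 by -0.13. The part of the spike-ins, the hybridization controls and RNA quality in the differences was not tested beyond these values.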

How the results depend on the processing

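No gene or probe set of the 43 was called under the alternatives run, apart from array weights, where 12 genes (27.9%; 32.6% of all genes) and 21 probe sets (13.9%; 14.4% of all) were called. With spike-in level as covariate the hydrolase median was -0.0529, the membrane median 0.06374, and of the genes given with every array value GAA, CTSD and NPC1 changed direction, to -0.12, -0.0529 and 0.06374. With the mean of all probe sets of a gene the autophagosome median was 0.04524 and the membrane median -0.02624, and 6 genes turned: ATG13 to 0.05577, NPC1 to 0.05833, BECN1 to 0.06, GABARAP to 0.10, GABARAPL1 to 0.08 and LAMP1 to -0.03. Array weights gave medians of 0.06633 for autophagosome and -0.0707 for membrane genes and turned TFE3, of the same genes, to -0.09183. Among features above the median level the membrane median was -0.05186. With 1 array left out the hydrolase median ran from -0.02357 to 0.2473, the membrane median from -0.1286 to 0.00189, the autophagosome median from -0.06119 to 0.02041, the pump median from -0.2001 to 0.011, TFE3 from -0.03485 to 0.254, CTSD from -0.02357 to 0.25 and LAMP2 from -0.5149 to 0.1189. The smallest adjusted p of the 43 genes then ran from 0.0769 to 0.556. The direction held with each array left out in 28 genes. The cause of these changes was not tested. With the replicate number as a block 0 genes were called, with a smallest adjusted p of 0.505. Deviations of same-numbered arrays from their group means had r = -0.55, -0.47 and 0.12. The highest r was 0.61, between control replicate 1 and endosulfan replicate 2. With 3 arrays per group these correlations cannot show how the samples were paired. The number of arrays limits what could be called.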

Other observations

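Mannose 6-phosphate sorting, the route that carries new hydrolases from the Golgi to the lysosome, had 8 of 9 listed genes measured, with 5 higher, 3 lower and a median of 0.08, and none passed the limma test. IGF2R, the receptor that ferries the tagged enzymes, lay at 8.59, 7.70 and 8.12 in control cells and at 7.72, 7.39 and 7.55 with endosulfan, a difference of -0.58 with overlapping groups (adjusted p = 0.254). GNPTAB and GNPTG, subunits of the enzyme that starts the tag, were higher by 0.17 and 0.26 without overlap (adjusted p = 0.444 and 0.313). They were the 2 of the 8 genes wholly above the controls (25.0%), beside 12.4% of all genes, and none lay wholly below.

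Among the markers of sympathetic neuroblasts 3 of 10 (30.0%) were lower at an unadjusted p below 0.05, beside 10.5% of all genes, and none passed after adjustment. By direction 5 of the 10 were higher, up to 0.27 in PHOX2A, and 5 lower, with a median of 0.005. ISL1, a transcription factor of these cells, differed by -1.33 and STMN2, a microtubule regulator of growing neurites, by -1.05 (adjusted p = 0.196 each). GATA3 differed by -0.35 (adjusted p = 0.22). In these 3 genes every endosulfan array lay below every control array, as in 10.2% of all genes. Their relation to the lower values of PIK3C3, ATP6V1A and ATP6V1B2 was not tested.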
